A study of Mus musculus with 6 samples.

Results

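The genes described here are those of the mGluR6 cascade, the signalling machinery on the dendrites of retinal ON bipolar cells, together with 2 genes that mark the rod bipolar cell. Members were the probe sets whose single gene symbol in the platform annotation was Grm6, Nyx, Gpr179, Gnao1, Gng13, Rgs7, Rgs11, Trpm1, Prkca or Pcp2. This gave 19 of 45037 probe sets, for 9 of the 10 genes. No probe set carried the single symbol Grm6, so the receptor itself was not analysed here. RNA came from retinas of mice about 4 weeks old and was measured on 6 single-colour Affymetrix arrays. The 3 mutant arrays held RNA of prCAD -/- mice. These animals carry no functional Cdhr1, the gene of photoreceptor cadherin, and the labels do not name their strain. The 3 control arrays held RNA of wild type 129 mice, and strain and mutation cannot be told apart if the mutants are of another strain. Retinas of 3 mice were pooled for each array. The spread within a group is therefore one between pools of whole retina, and the small number of arrays limits the precision of every value.

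ON bipolar cells receive glutamate from rods and cones, which release it in darkness. Glutamate binds the receptor mGluR6, the product of Grm6. The receptor activates the G protein Go, and active Go keeps the cation channel TRPM1 closed. When light lowers glutamate, the regulators RGS7 and RGS11 speed the return of Go to its inactive state, the channel opens and the cell depolarises. In humans, loss of GRM6, TRPM1, NYX or GPR179 causes congenital stationary night blindness. The photoreceptors that feed this synapse are also the cells that make photoreceptor cadherin, and the comparison asks what differs in the retina of a mouse that lacks it.

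Across the arrays, the median log2 value ran from 4.74 to 4.79. Values are log2 expression made by the authors with RMA, a method that subtracts background, gives every array the same distribution and combines the probes of a set into 1 value. Cdhr1 read 3.94, 4.20 and 4.34 in mutant arrays 1 to 3, against 11.32, 11.36 and 10.98 in wild type arrays 1 to 3, which fits the labels. Its difference of -7.06 (SE 0.15) passed limma (adjusted p = 2.18e-05, by Benjamini-Hochberg over every probe set), and 5 of 45037 probe sets passed in all. The retinal label was borne out by Sag, rod arrestin, at 13.06 to 13.45 in every array. All 13 measured pan-bipolar and ON bipolar markers had means above 4.76, the median over all probe sets. That says little about the tissue, since each gene was read at its brightest probe set. Only 6407 of all 18193 genes lay below 4.76 in this way, and none of the measured lens crystallins did. Markers of neighbouring tissue were also read. The 12 measured lens crystallins summed on the linear scale to between 32943 and 57904 in mutant arrays and between 16048 and 50839 in wild type arrays. Arrays 3 of both groups correlated least with the others (median r = 0.982 for mutant replicate 3 and 0.979 for wild type replicate 3, across probe sets). For the members and some lists, values without these arrays or within pairs of same-numbered arrays are also given.

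No member passed the test over all probe sets. By limma 0 of 19 member probe sets had an adjusted p under 0.05, as did 0.0111% of all probe sets, and 0 did with the replicate number as a block, against 0.0333%. At an unadjusted p under 0.05 there were 2 members, one probe set each of Trpm1 and Rgs11, against 3.02% of all probe sets, and 4 with the block, against 7.6%. Both probe sets of the first count were higher in mutant retina, as were 1.68% of all at that p. The block added Pcp2 1419085_at and Prkca 1427562_a_at, both lower in mutant retina (unadjusted limma p with the block 0.0182 and 0.0263). The 19 differences had a median of -0.06, with 7 higher and 12 lower, beside a median of 0.01 over all probe sets, and they ran from -0.40 to 0.59. Mutant and wild type values did not overlap at 3 members, all of them higher in mutant retina. Over all probe sets 4.73% did not overlap in that direction and 7.8% in either. In whole retina, fewer cells of a type and less RNA per cell cannot be told apart.

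**Figure D1:**
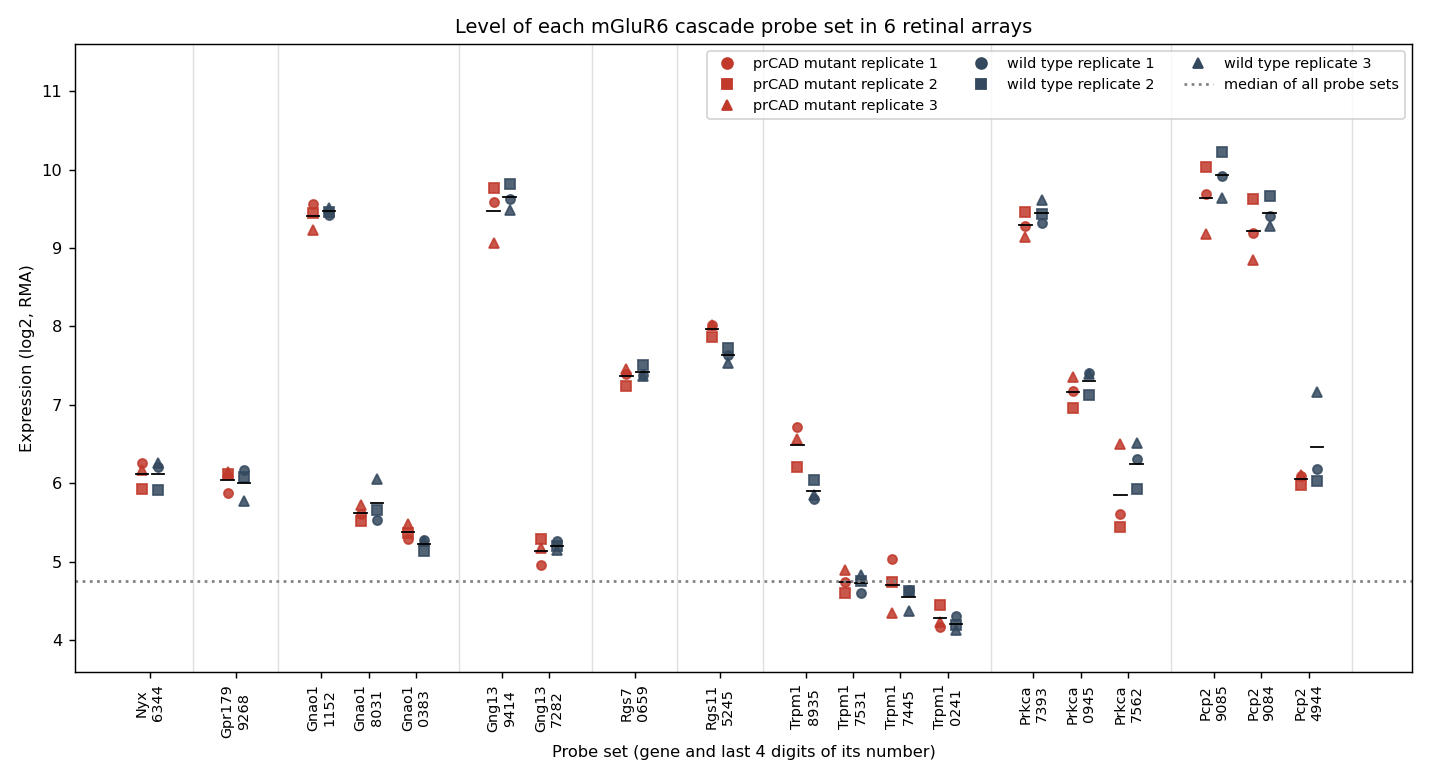
Expression (log2, RMA) of the 19 cascade probe sets in each array, prCAD mutant in red and wild type in dark blue, with a marker shape per replicate number, short lines at the group means (n = 3) and a dotted line at the median of all probe sets, 4.76. The groups stand clear of each other at Trpm1 1418935_at and Rgs11, and narrowly at Gnao1 1460383_at, and they overlap at the other probe sets.

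The scaffold genes of the dendrite did not separate the groups. Nyx encodes nyctalopin, a leucine-rich repeat protein that holds TRPM1 at the dendritic tip. Its probe set 1446344_at read 6.26, 5.93 and 6.17 in mutant arrays, against 6.21, 5.91 and 6.26 in wild type arrays. The second array was the lowest of its group in both, and the groups overlapped fully. The difference was -0.0052 (SE 0.14, limma adjusted p = 1.00), with a 95% interval that reaches from 0.798-fold to 1.24-fold.

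Gpr179 encodes an orphan receptor that anchors the RGS proteins at the same site. Its probe set 1459268_at read 5.87, 6.12 and 6.14 in mutant arrays, against 6.17, 6.08 and 5.77 in wild type arrays. The lowest value was that of wild type replicate 3 and the highest that of wild type replicate 1, so the wild type arrays spanned the mutant ones. The difference was 0.04 (SE 0.14, limma adjusted p = 1.00; 95% interval 0.820-fold to 1.29-fold), while the pairs of same-numbered arrays gave -0.30, 0.04 and 0.37.

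Gnao1 encodes the alpha subunit of Go, which many neurons use besides ON bipolar cells. Its brightest probe set, 1421152_a_at, read 9.55, 9.44 and 9.23 in mutant arrays, against 9.42, 9.46 and 9.51 in wild type arrays. Mutant replicate 3 was the lowest of all and mutant replicate 1 the highest. The difference was -0.06 (SE 0.11, limma adjusted p = 1.00; 95% interval 0.805-fold to 1.15-fold).

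The other Gnao1 probe sets went in opposite directions. At 1460383_at the mutant arrays read 5.29, 5.37 and 5.48, against 5.27, 5.14 and 5.26 in wild type arrays. The groups did not overlap, though by a margin of only 0.015, and the difference was 0.15 (SE 0.09, limma adjusted p = 1.00). At 1448031_at the difference was -0.13 (SE 0.15), and without wild type replicate 3, the highest array there at 6.05, it was 0.024. The 3 probe sets of this gene thus give no shared direction.

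Gng13 encodes the gamma subunit of Go in ON bipolar cells, best known as gustducin's partner in taste cells. Its brighter probe set, 1419414_at, read 9.59, 9.76 and 9.07 in mutant arrays, against 9.63, 9.82 and 9.49 in wild type arrays. Every mutant array lay below the wild type array of its number, by 0.04, 0.06 and 0.42, but the groups overlapped. The difference of -0.17 (SE 0.19, limma adjusted p = 1.00) rested on mutant replicate 3, without which it was 0.032. The dimmer probe set, 1447282_at, differed by -0.06 (SE 0.11).

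Of the 2 regulators of Go, only Rgs11 separated the groups, and neither passed the test over all probe sets. Rgs7 and Rgs11 both encode GTPase-activating proteins of the R7 family, which work bound to the beta subunit encoded by Gnb5. Rgs7, at its 1 probe set 1450659_at, read 7.39, 7.25 and 7.46 in mutant arrays, against 7.38, 7.50 and 7.37 in wild type arrays. The groups overlapped, and the difference was -0.05 (SE 0.10, limma adjusted p = 1.00; 95% interval 0.823-fold to 1.13-fold).

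Rgs11, at its 1 probe set 1425245_a_at, read 8.02, 7.86 and 8.02 in mutant arrays, against 7.64, 7.72 and 7.53 in wild type arrays. All mutant arrays lay above all wild type arrays, and mutant replicate 2 came closest to them. The difference was 0.34 (SE 0.10), or 1.26-fold (95% interval 1.08 to 1.48), with an unadjusted p of 0.0103 and a limma adjusted p of 1.00. The pairs gave 0.38, 0.15 and 0.49, and the value without both arrays of number 3 was 0.26. The difference therefore did not pass over all probe sets, although it exceeded the spread within either group (SD 0.09 in both, n = 3 each). Whether Rgs11 and Rgs7 differ in their response was not tested.

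**Figure D2:**
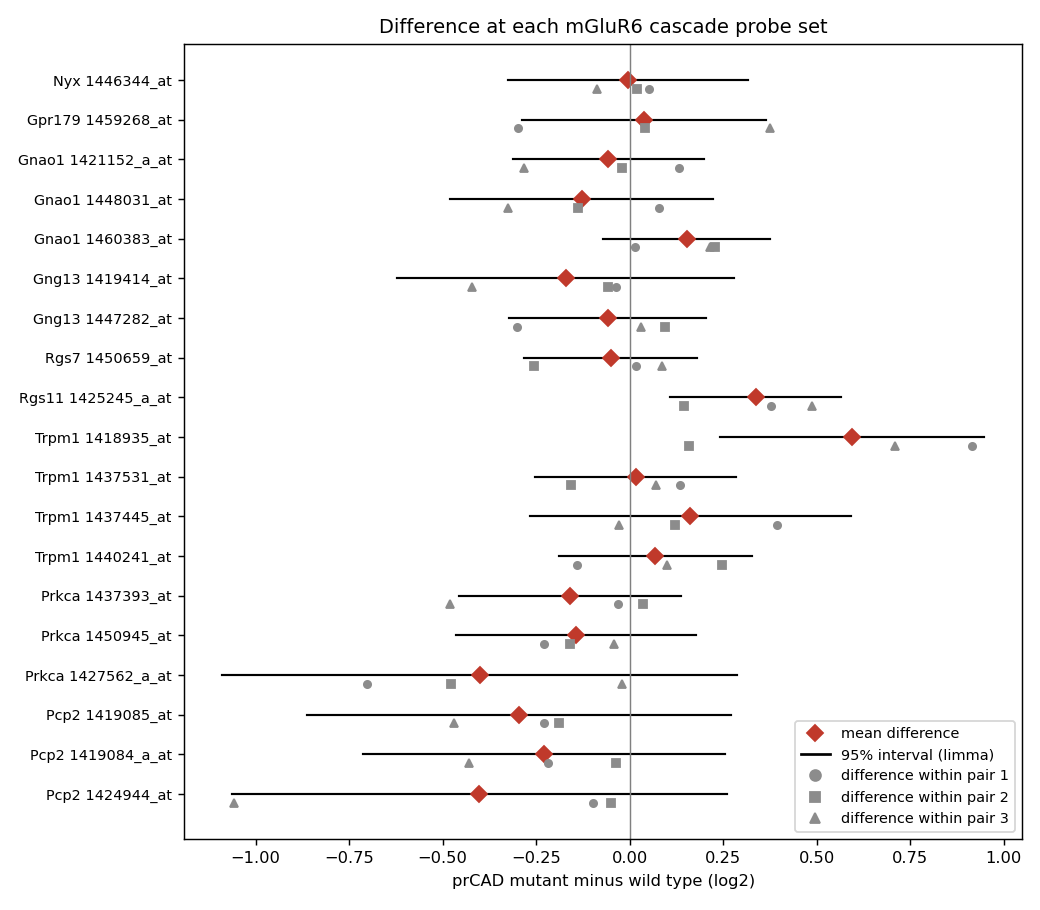
Difference between prCAD mutant and wild type (log2) at each of the 19 cascade probe sets: diamonds are mean differences, lines their 95% intervals from limma, and grey symbols the 3 differences between a mutant array and the wild type array of its number. The intervals of Trpm1 1418935_at and Rgs11 lie above 0 before adjustment, and those of the other 17 include 0.

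In the fit of all 6 arrays at equal weight, the largest difference among the members was that of Trpm1 at its brightest probe set. Trpm1 encodes the cation channel that ends the cascade; the gene was first known from pigment cells, under the name melastatin. Probe set 1418935_at read 6.71, 6.21 and 6.56 in mutant arrays, against 5.79, 6.05 and 5.86 in wild type arrays. All mutant arrays were above all wild type arrays, and the closest approach was between the arrays numbered 2. The difference was 0.59 (SE 0.15), or 1.51-fold (95% interval 1.18 to 1.93), with an unadjusted p of 0.00529 and a limma adjusted p of 1.00. Within pairs it was 0.92, 0.16 and 0.71, and without both arrays of number 3 it was 0.54. With array weights it was 0.40. Probe set 1427562_a_at of Prkca differed by more in size with array weights (-0.57), without mutant replicate 3 (-0.73, against 0.56 for Trpm1) and without both arrays of number 3 (-0.59).

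The other 3 Trpm1 probe sets did not show this difference. In mutant arrays 1437445_at read 5.04, 4.75 and 4.35, against 4.64, 4.62 and 4.38 in wild type arrays, a difference of 0.16 (SE 0.18). Probe set 1440241_at differed by 0.07 (SE 0.11) and 1437531_at by 0.02 (SE 0.11). All 3 had means under 4.76, the median of all probe sets, where background may limit what a probe set can show. No background level was estimated here. The platform annotation pairs 1418935_at with a RefSeq mRNA record and the other 3 with records of another kind, and their places along the gene are unknown here.

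Since Trpm1 is a gene of pigment cells as well as of ON bipolar cells, the pigment epithelium and melanocyte list is given beside it. Of its 18 measured genes 16 were higher in mutant retina and 0 passed limma over all probe sets, while 9 had an unadjusted p under 0.05, all higher. Among all 18193 genes, each at its brightest probe set, 10621 were higher, 3 passed and 424 were higher at that unadjusted p. The median difference of the list was 0.31, beside 0.02 over all genes. Within pairs the list medians were 0.22, 0.28 and 0.57. Mlana, a melanosome gene, read 6.39, 6.09 and 5.96 in mutant arrays, against 5.03, 5.70 and 5.07 in wild type arrays. Tyrp1, an enzyme of melanin synthesis, read 7.30, 6.64 and 6.78 in mutant arrays, against 6.09, 6.42 and 6.19 in wild type arrays. As at Trpm1, the first mutant array was the highest and the second wild type array the highest of its group, for both genes. At Rgr, an opsin of the pigment epithelium, the second mutant array and the first wild type array were instead the highest of their groups. Dct, another enzyme of melanin synthesis, differed by 1.00 (SE 0.28) and Rgr by 1.40 (SE 0.39), each with a limma adjusted p of 1.00. Within pairs the Rgr difference was 0.71, 1.32 and 2.17, and wild type replicate 3 was its lowest array at 4.79. Other genes of the list differed little. The 2 lower ones were Rlbp1 at -0.07 (SE 0.31) and Trpm3 at -0.01 (SE 0.24). Mitf, which encodes a pigment cell factor, differed by 0.11 (SE 0.16) and Best1 by 0.0058 (SE 0.10). Rlbp1, Trpm3, Mitf and Best1 were named after their values were seen.

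The linear values of the 18 genes summed to 3661, 3915 and 2776 in mutant arrays, against 2427, 2465 and 1423 in wild type arrays. The lowest mutant sum was above the highest wild type sum. A linear sum weights bright genes most, so this separation should not be read as one of the whole list. Ttr was the largest term in every mutant array. It read 9.91, 10.16 and 9.77 in mutant arrays, against 9.03, 8.32 and 5.68 in wild type arrays. Gene by gene, the groups did not overlap at 11 of the 18, all higher in mutant retina. In that direction 1072 of all 18193 genes did not overlap. None of the defining markers is listed at 0, but this does not show that a gene is expressed. Cdhr1, not functional in the mutant mice, still read 3.94 to 4.34 in their arrays. Of the 18 genes 2 had means below 4.76. The part of these cells in the Trpm1 difference was not tested.

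Among 11785 other genes with a mean at or above 4.76, each at its brightest probe set, the 3 with the profile nearest to that of Trpm1 were Jak3, Kcnj13 and Prtg. Nearness was the root mean square difference between profiles centred on their own mean over the 6 arrays, 0.0845 for Jak3, 0.102 for Kcnj13 and 0.104 for Prtg on the log2 scale. Kcnj13, a potassium channel gene best known from the pigment epithelium, read 5.75, 5.54 and 5.59 in mutant arrays, against 4.93, 5.15 and 5.01 in wild type arrays. Jak3, a kinase of cytokine receptors, differed by 0.49 (SE 0.12), and Prtg, which encodes a membrane protein of the immunoglobulin superfamily, by 0.77 (SE 0.13). The search used all 6 arrays, group difference included, so the nearest genes differ between groups much as Trpm1 does by construction. Their differences are no separate result. As the search covered many genes over few arrays, close profiles of this kind are a description of these libraries.

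RefSeq lists 2 promoter windows for Trpm1 in GRCm38.p6, with starts 31624 bases apart on chromosome 7, and both are shown because the gene's probe sets disagree and because it is used in more than 1 cell type. Each window holds 250 bases before a start and 50 after it. Capitals mark matches on either strand to GGATTA, the core bound by OTX and CRX homeodomain factors of photoreceptors and bipolar cells, to CATGTG, an E-box form bound by the pigment cell factor MITF, and to the palindrome CACGTG. These letters do not overlap one another in either window.
Trpm1 upstream start, chr7:64153585-64153884, + strand: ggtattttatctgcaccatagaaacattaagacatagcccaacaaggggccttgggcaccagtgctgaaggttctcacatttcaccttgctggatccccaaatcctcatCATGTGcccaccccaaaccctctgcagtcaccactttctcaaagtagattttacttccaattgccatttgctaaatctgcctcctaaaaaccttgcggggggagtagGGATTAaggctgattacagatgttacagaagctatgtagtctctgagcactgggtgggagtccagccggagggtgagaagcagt
Trpm1 downstream start, chr7:64185209-64185508, + strand: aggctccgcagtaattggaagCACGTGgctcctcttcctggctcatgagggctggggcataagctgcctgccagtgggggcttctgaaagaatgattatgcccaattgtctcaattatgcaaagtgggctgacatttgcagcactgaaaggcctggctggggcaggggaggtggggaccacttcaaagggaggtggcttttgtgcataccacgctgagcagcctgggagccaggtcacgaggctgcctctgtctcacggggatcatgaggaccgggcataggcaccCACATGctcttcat
In the upstream window CATGTG begins 141 bases before the start and GGATTA 34 bases before it. In the downstream window CACGTG begins 229 bases before the start and CATGTG, read on the other strand, 36 bases after it. GGATTA is held by 7.06% of all 32851 windows listed for the mouse, CATGTG by 14.2% and CACGTG by 7.15%, counting either strand. Windows were listed for 9 of the 10 member genes, 14 windows in all, and GGATTA was found in 1 of them, CATGTG in 4 and CACGTG in 2. Matches of this length are common, and which start these retinas used cannot be read from the arrays.

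The rod bipolar markers lay lower in mutant arrays without passing. Pcp2 encodes a small protein that binds Go-type alpha subunits, found in rod bipolar cells and in cerebellar Purkinje cells. Its brightest probe set, 1419085_at, read 9.69, 10.03 and 9.17 in mutant arrays, against 9.92, 10.22 and 9.64 in wild type arrays. Each mutant array was below the wild type array of its number, by 0.23, 0.19 and 0.47, but the groups overlapped. In both groups array 2 was the highest and array 3 the lowest. The difference was -0.30 (SE 0.24, limma adjusted p = 1.00; 95% interval 0.550-fold to 1.21-fold). It was -0.07 without mutant replicate 3, -0.50 without mutant replicate 2 and -0.21 without both arrays of number 3.

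The same order of arrays appeared at 1419084_a_at, which read 9.19, 9.62 and 8.85 in mutant arrays, against 9.41, 9.66 and 9.28 in wild type arrays. The difference there was -0.23 (SE 0.21). It was -0.04 without mutant replicate 3, -0.43 without mutant replicate 2 and -0.13 without both arrays of number 3. At 1424944_at the mutant arrays read 6.09, 5.98 and 6.11, against 6.18, 6.03 and 7.16 in wild type arrays. That difference of -0.40 (SE 0.28) came from the one high value of wild type replicate 3, and it was -0.05 without that array.

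Prkca encodes protein kinase C alpha, the standard marker of rod bipolar cells, also made by some amacrine cells. Its brightest probe set, 1437393_at, read 9.28, 9.46 and 9.13 in mutant arrays, against 9.31, 9.43 and 9.61 in wild type arrays. The groups overlapped, and the difference of -0.16 (SE 0.13, limma adjusted p = 1.00) was 0.0024 without both arrays of number 3. At 1450945_at the difference was -0.14 (SE 0.14). At 1427562_a_at the mutant arrays read 5.60, 5.45 and 6.50, against 6.31, 5.92 and 6.52 in wild type arrays. Mutant replicate 3 stood with the wild type arrays there, and the difference was -0.40 (SE 0.29, limma adjusted p = 1.00), or -0.73 without mutant replicate 3 and -0.59 without both arrays of number 3. It was -0.20 without mutant replicate 2 and -0.27 without wild type replicate 3.

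Pcp2 and Gng13 varied among the arrays in a like way. At the brightest probe set of each, wild type replicate 2 was the highest array and mutant replicate 3 the lowest. Mutant replicate 3 was the lowest array at 6 of the 19 member probe sets and at 21.9% of all probe sets. All 3 pairs were lower in mutant retina at 6 of 19 member probe sets, namely all 3 of Pcp2, 2 of Prkca and 1 of Gng13, against 13.1% of all probe sets. All 3 pairs were higher at 3 member probe sets, those of Trpm1 1418935_at, Rgs11 and Gnao1 1460383_at, against 17% of all. Probe sets of one gene share their transcript, so these are not independent counts.

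**Figure D3:**
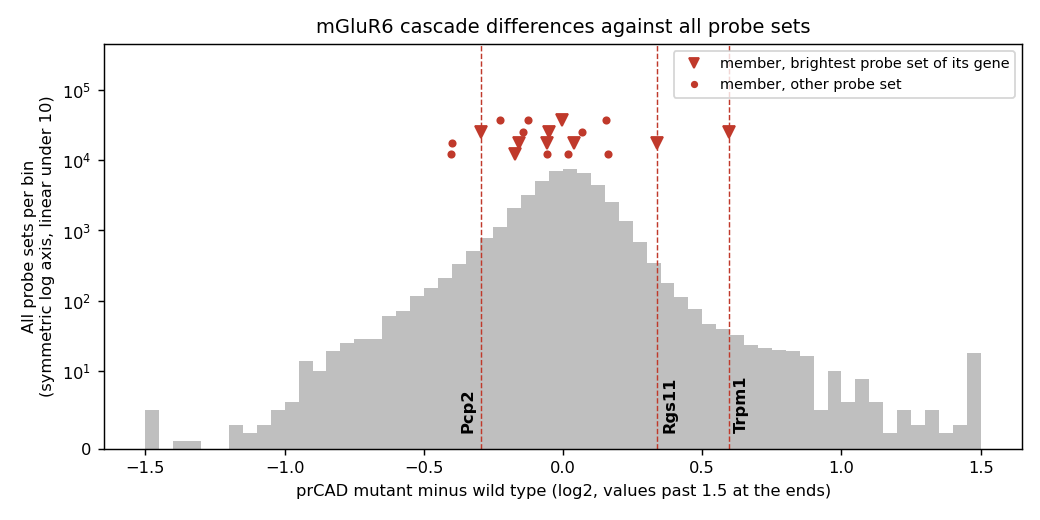
Differences between prCAD mutant and wild type (log2) over all 45037 probe sets as grey bars on a symmetric log count axis, with the 19 cascade probe sets above them, triangles for the brightest probe set of a gene and dots for the others; height among the red symbols has no meaning. Trpm1 at 0.59 and Rgs11 at 0.34 lie in the right flank, and the other members lie between -0.40 and 0.16.

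Outside the members, 7 of 8 further genes of the cascade were measured, and 0 passed limma over all probe sets. Taken at the brightest probe set of each gene, 3 were higher and 4 lower, with a median difference of -0.00035. Gnb3 encodes the G protein beta subunit that ON bipolar cells share with cones. It read 10.92, 10.61 and 10.17 in mutant arrays, against 9.66, 9.75 and 9.32 in wild type arrays, without overlap between groups, and differed by 0.99 (SE 0.21, unadjusted p = 0.00206, limma adjusted p = 0.920). With the replicate block its adjusted p was 0.0871. The 9 measured cone markers, whose cells also use Gnb3, summed on the linear scale to between 3282 and 3905 in mutant arrays and between 3341 and 4236 in wild type arrays. A linear sum weights bright genes most. Gene by gene, 3 of the 9 were higher and 6 lower. Pde6c, the cone phosphodiesterase gene, was higher by 0.76 (SE 0.12, limma adjusted p = 0.479). It alone of the 9 did not overlap between groups, as 1596 of all 18193 genes did not. None of the 9 is listed at 0, which does not show that a gene is expressed. The part of cones in the Gnb3 difference was not tested.

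The other 6 measured genes of the list had a limma adjusted p of 1.00 each; Gnb5, Rgs7bp and Ric8a were named after their values were seen. Gnb5, the obligate beta subunit of the R7 family, had a brightest probe set that differed by -0.00035 (SE 0.11). Rgs7bp, a membrane anchor of that family, had a difference of 0.03 (SE 0.09) at the brightest of its probe sets, -0.20 (SE 0.15) at 1458534_at and -0.26 (SE 0.38) at 1437559_at. Rgs9bp, the anchor shared by rods and ON bipolar cells, differed by -0.21 (SE 0.14), and its pairs gave -0.02, -0.09 and -0.52. Elfn1, the rod protein that binds mGluR6 across the synapse, differed by -0.06 (SE 0.13), while Ric8a and Ric8b, chaperones of G protein alpha subunits, differed by -0.05 (SE 0.14) and 0.10 (SE 0.16).

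Relatives of the members were read as well. Of 6 measured metabotropic glutamate receptors other than mGluR6, 0 passed limma over all probe sets and 0 had an unadjusted p under 0.05. Grm8, a presynaptic receptor of the same group as mGluR6, differed by -0.28 (SE 0.13), and the median was -0.03. The other Gi/o family alpha subunit genes had a median difference of -0.01 over 4 genes, of which 0 passed and 0 had an unadjusted p under 0.05, Gnai1 differing by -0.25 (SE 0.23) and Gnai2 by 0.24 (SE 0.22). Rgs6 and Rgs9, the remaining R7 regulators, differed by -0.07 (SE 0.10) and 0.03 (SE 0.15), and 0 of these 2 passed limma or had an unadjusted p under 0.05. Among all 18193 genes, each at its brightest probe set, 3 passed and 622 had such a p. Counts of 0 in lists this short therefore say little. Means lay below 4.76 for 2 of the 6 receptors and for Rgs6, where background may limit what a probe set can show.

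Markers of the cells that carry the cascade showed no difference past the test. Of 13 measured pan-bipolar and ON bipolar markers 4 were higher and 9 lower, at a median difference of -0.07. Of these, 0 passed limma over all probe sets and 0 had an unadjusted p under 0.05. Among all 18193 genes, each at its brightest probe set, 10621 were higher, 3 passed and 622 had an unadjusted p under 0.05. A count of 0 in so short a list therefore does not show that these cells are unchanged. Car8, a carbonic anhydrase-related gene of rod bipolar cells, read 7.19, 7.01 and 6.41 in mutant arrays, against 7.07, 7.59 and 6.96 in wild type arrays. The third mutant array was again the lowest. Lhx4, a homeodomain gene of bipolar cells, differed by 0.17 (SE 0.11) and Bhlhe23, a transcription factor needed for rod bipolar cells, by -0.17 (SE 0.12). Their linear values summed to between 4049 and 4981 in mutant arrays and between 4347 and 5138 in wild type arrays. The 10 OFF bipolar markers, whose cells use ionotropic receptors in place of mGluR6, had a median difference of 0.07. Of these 10, 7 were higher and 3 lower, with 0 past the test and 0 at an unadjusted p under 0.05. Means of 3 of the 10 lay below 4.76, where background may limit what a probe set can show. Whether ON and OFF markers differ in their response was not tested.

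**Figure D4:**
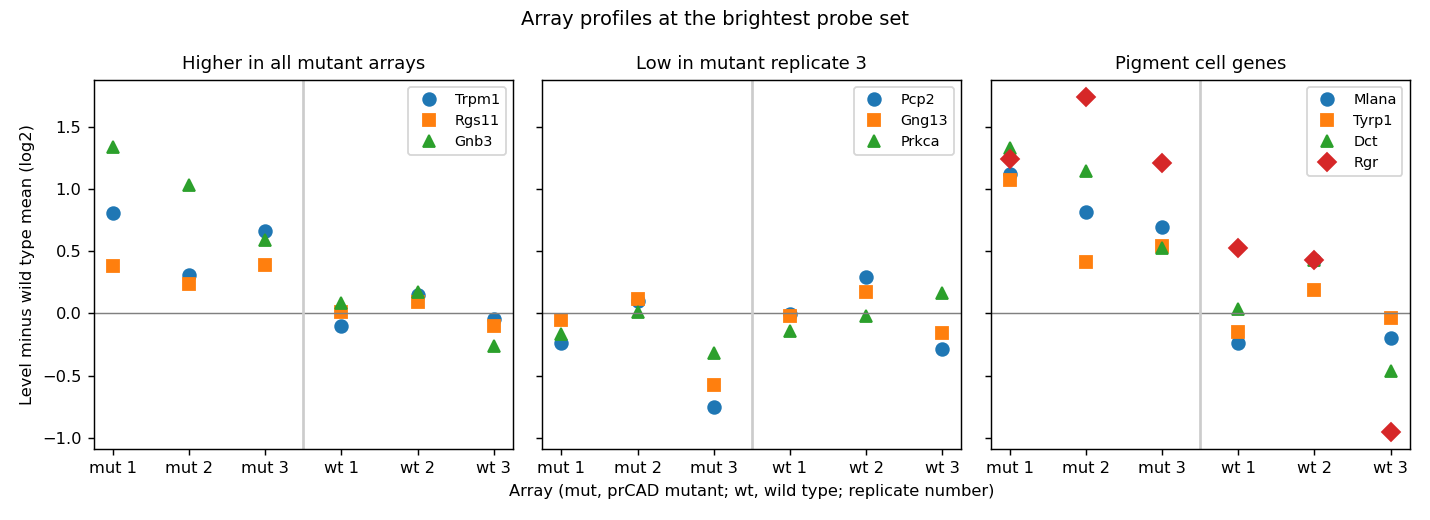
Level in each array minus the wild type mean (log2) at the brightest probe set of each gene: left, Trpm1, Rgs11 and the partner gene Gnb3; middle, Pcp2, Gng13 and Prkca; right, pigment cell genes. In the left panel all mutant arrays lie above all wild type arrays; in the middle panel mutant replicate 3 is the lowest array for each gene.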

How the data were processed

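The deposited values are log2 expression. The authors used RMA, version not stated, per the submitters' processing notes. Per the labels' protocols, Trizol and an RNeasy kit served for RNA extraction and biotin for labelling. The table holds 45101 probe sets; 64 manufacturer controls were left out. Of the rest, 34945 have 1 gene symbol in the platform annotation, 932 several and 9160 none. The brightest probe set of a gene has the highest mean over the 6 arrays.

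Groups and replicate numbers came from the sample titles. Group was the only term of the limma fit (version 3.58.1, R 4.3.3; lmFit and eBayes), and p-values were adjusted over 45037 probe sets by Benjamini-Hochberg, with a threshold of 0.05. Intervals are its 95% intervals, unadjusted. The p-values measure the spread between pools of mice. After removal of group means, arrays 1, 2 and 3 of the 2 groups correlated with each other by number at 0.477, 0.469 and 0.563 across probe sets. The numbers were on that ground, which the labels do not give, treated as pairs. Alternatives were the replicate block, the brighter probe sets only, array weights, median centring, a second quantile normalization, a robust eBayes fit with a trend, and leaving out each array; leaving out both arrays of number 3 was chosen after seeing the data. The fit was tested on simulated data. Named genes were all members, Cdhr1, up to 4 genes per list with the smallest p (the few others are marked where they appear), and the 3 nearest profiles to Trpm1 (for Grm6, which had no probe set, none). Members and lists were chosen with earlier results of these data known. Promoters are RefSeq's (GRCm38.p6). Figures used matplotlib 3.10.9.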

Additional observations from a re-analysis of the deposited data

How the results depend on the processing

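Under all 13 alternatives 0 of the 19 member probe sets passed by limma (16 of them were tested among the brighter probe sets), and the smallest adjusted p of a member was 0.389, without both arrays of number 3. The number at an unadjusted p under 0.05 ran from 2 to 4. The replicate block changed no call of a member; over all probe sets it gave 15 calls in place of 5, and 3 among the gene lists in place of 0. Array weights gave 25 and 5, and leaving out both arrays of number 3 gave 16 and 1. Leaving out single arrays gave between 2 and 9 calls over all probe sets; the cause was not tested. Cdhr1 passed throughout, at -7.27 to -6.95. Of 244 member values under alternatives 22 changed sign, none of a called value. With array weights these were Gpr179 (-0.0050), Gng13 1447282_at (0.0065) and Trpm1 1437531_at (-0.056). Without both arrays of number 3 they were Nyx (0.036), Gpr179 (-0.13), Gnao1 1421152_a_at (0.056), Trpm1 1437531_at (-0.011) and Prkca 1437393_at (0.0024). Without single arrays Nyx ran from -0.11 to 0.089, Gpr179 from -0.080 to 0.12, Gnao1 1421152_a_at from -0.13 to 0.032, Gnao1 1448031_at from -0.24 to 0.024, Gng13 1419414_at from -0.32 to 0.032, Gng13 1447282_at from -0.13 to 0.033 and Rgs7 from -0.096 to 0.0089. Trpm1 1437531_at ran from -0.059 to 0.088, 1437445_at from -0.00015 to 0.34 and 1440241_at from -0.014 to 0.13. Trpm1 1418935_at ran from 0.49 to 0.74 and Rgs11 from 0.29 to 0.39; with array weights they were 0.40 and 0.24. Values near 4.76 and below may be limited by background, which was not tested.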

Other observations

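Lists of other retinal cells are given as values. By limma over all probe sets 0 members of each list below passed, and the number at an unadjusted p under 0.05 follows in parentheses. Among all 18193 genes, each at its brightest probe set, that number was 622, of which 424 were higher in mutant retina. At any p, 10621 of those genes were higher. Rod markers had a median difference of -0.19 over 13 genes (3 at an unadjusted p under 0.05), with Esrrb, a nuclear receptor of rods, at -0.42 (SE 0.13) and Sag, rod arrestin, at 0.26 (SE 0.09). Within the pairs the rod medians were -0.12, -0.04 and -0.50. Cone markers had a median of -0.12 over 9 genes (1) and of -0.08, -0.11 and 0.20 within the pairs, with the cone phosphodiesterase gene Pde6c at 0.76 (SE 0.12). Amacrine cell markers had a median of -0.02 over 11 genes (1) and Müller glia markers one of 0.15 over 11 genes (3). Genes of reactive gliosis, like the other lists, were chosen with earlier results of these data known, so their counts are description only. They had a median of 1.24 over 11 genes (10), with 11 higher in mutant retina. With the replicate block 2 of them passed, Cebpd, a transcription factor gene, at an adjusted p of 0.0379 and the metallothionein gene Mt2 at 0.0227; Mt2 was named after its values were seen. The lens crystallins had a median of 0.83 over 12 genes (0), and 0.08, 0.16 and 2.14 within the pairs.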
